A study of Rattus norvegicus with 23 samples.

Results

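The protein genes of the mitochondrial ribosome were followed across newborn rat hearts exposed before birth to maternal diabetes, a maternal high fat (HF) diet, or both. A gene was a member when its symbol in the array's probe annotation began with Mrpl or Mrps followed by a digit, or was Dap3, and when its probe set carried that symbol alone. This gave 69 of the 14506 named genes, measured by 73 of the 15310 probe sets with 1 symbol. The large subunit had 41 genes with Mrpl symbols, and the small subunit had 28, which were Dap3 and the genes with Mrps symbols. The rule itself uses no measured value, though the group was picked with earlier results of these data known.

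Total RNA of 23 whole hearts, taken at postnatal day 1 from the offspring of Sprague Dawley dams, was hybridized to Affymetrix Rat Gene 1.0 ST arrays. The controls (n = 7) came from dams given control diet and a citrate buffer injection at gestational day 14. The diabetes exposed hearts (n = 6) came from dams on control diet that on that day received streptozotocin at 65 mg/kg, which destroys pancreatic beta cells, and then insulin to hold glucose between 200 and 400 mg/dl. The HF diet exposed hearts (n = 5) came from buffer-injected dams that ate HF diet during pregnancy and for 28 days or more ahead of it, and the combination exposed hearts (n = 5) from dams with both the diet and the streptozotocin. All pregnancies went to delivery at gestational day 22. The model therefore has drug-induced, partly treated diabetes that began late in gestation. Each group held hearts of both sexes, and the labels do not give the sex of single hearts or say whether hearts with a shared stem in their sample codes were littermates. Stems were shared only in the HF diet and combination groups. HF diet exposed hearts 3, 4 and 5 had the same stem, as did combination exposed hearts 1 and 2, and combination exposed hearts 4 and 5. The p-values below therefore measure the spread between these hearts, and not between dams, which were the ones exposed. Each heart was fitted as independent. If hearts with a shared stem were littermates, the SEs and p-values could be too small.

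The mitochondrial ribosome, or mitoribosome, sits inside mitochondria and translates the few messages of the mitochondrial genome, which encode core subunits of the respiratory chain and ATP synthase. Its ribosomal RNAs come from mitochondrial DNA, while all of its proteins are encoded in the nucleus, made in the cytosol and imported. The small subunit binds the message, and the large subunit joins amino acids and releases the new protein at the inner membrane. Part of the proteins belong to families shared with bacterial ribosomes and the rest were added in mitochondria. The heart relies heavily on respiration, and inherited defects of several of these proteins cause cardiomyopathy.

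All values are log2 signals from which the median of each probe set over the 23 hearts had been subtracted. A value of 0 is therefore the middle heart for that gene, a difference of 1 is a doubling, and neither the absolute level of a gene nor the order of levels between genes can be read. For the same reason the defining markers of heart muscle could be compared between hearts but could not show that the tissue was heart. Fewer cells of a type and less RNA per cell cannot be told apart in whole hearts. A gene was said to have risen or fallen when its log2 difference was beyond 0.32, which is the fold limit of the study's methods, and its unadjusted limma p was under 0.05. Array SDs ran from 0.16 to 0.39, and combination exposed heart 1 had the widest array, which received the lowest weight (0.317) when limma estimated array weights.

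Control 1 stood apart in genes of other tissues. The mean of 8 lung and thymus markers was 4.30 in that heart, and between -0.22 and 0.77 in the other 22. All 8 were highest there, among them the surfactant gene Sftpc (5.93, with 0.44 as the next highest heart) and the T cell gene Cd3e (4.68, with 0.31 next). Macrophage markers were also highest there, at a mean of 0.61. Control 1 was the lowest heart of the series for the members as well. The members' counts, medians and subunit means against controls are therefore given with and without it. Differences of single genes and of other gene lists include control 1 unless stated. Whether the other tissue had a part in its low values was not tested. HF diet exposed heart 4 had the next highest lung and thymus mean, with Scgb1a1, an airway gene, at 4.22.

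Both subunits stood higher in the combination exposed hearts than in the other 3 groups, and by nearly the same amount. The mean log2 value of the 41 large subunit genes was 0.69, 0.33, 0.14, -0.0032 and 0.14 in combination exposed hearts 1 to 5. In the controls this mean ran from -0.27 through a median of -0.043 to 0.25. In the diabetes exposed hearts it ran from -0.17 through -0.064 to 0.31. The combination range thus overlapped both, with heart 1 far above all others, heart 2 just above the highest diabetes exposed heart, and heart 4 level with the middle of the series. In the HF diet exposed hearts the large subunit mean stayed between -0.17 and 0.077.

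The small subunit followed much the same order of hearts. Its mean over 28 genes was 0.62, 0.27, 0.12, 0.0043 and 0.14 in combination exposed hearts 1 to 5. The group mean was 0.23 ± 0.24 (SD, n = 5) in the combination exposed hearts, -0.021 ± 0.16 (SD, n = 7) in controls, -0.013 ± 0.16 (SD, n = 6) in diabetes exposed and -0.046 ± 0.088 (SD, n = 5) in HF diet exposed hearts. The matching values for the large subunit were 0.26 ± 0.27, -0.017 ± 0.18, -0.023 ± 0.17 and -0.054 ± 0.10. The difference between combination exposed and control means, 0.28 for the large and 0.25 for the small subunit, was close to the SD within the combination group. Without control 1 these differences were 0.23 and 0.22, and the control means were 0.025 ± 0.16 and 0.011 ± 0.15 (SD, n = 6).

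No group showed a wide gap between the subunits. The large minus small difference was 0.0037 ± 0.036 (SD, n = 7) in controls, -0.0098 ± 0.038 (SD, n = 6) in diabetes exposed, -0.0076 ± 0.031 (SD, n = 5) in HF diet exposed and 0.029 ± 0.036 (SD, n = 5) in combination exposed hearts. In the combination exposed hearts the gap ran from -0.0075 to 0.072, within a few hundredths of the control range of -0.061 to 0.059. Over the 23 hearts the subunit means had a Pearson correlation of 0.99 and a Spearman correlation of 0.97, and Pearson's value was 0.98 without combination exposed hearts 1 and 2. Both means of a heart come from the same array and share its normalization. Moving Mrps30 and Mrps18a, whose proteins sit in the large subunit despite their symbols, changed the direction of no subunit difference between groups.

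**Figure D1:**
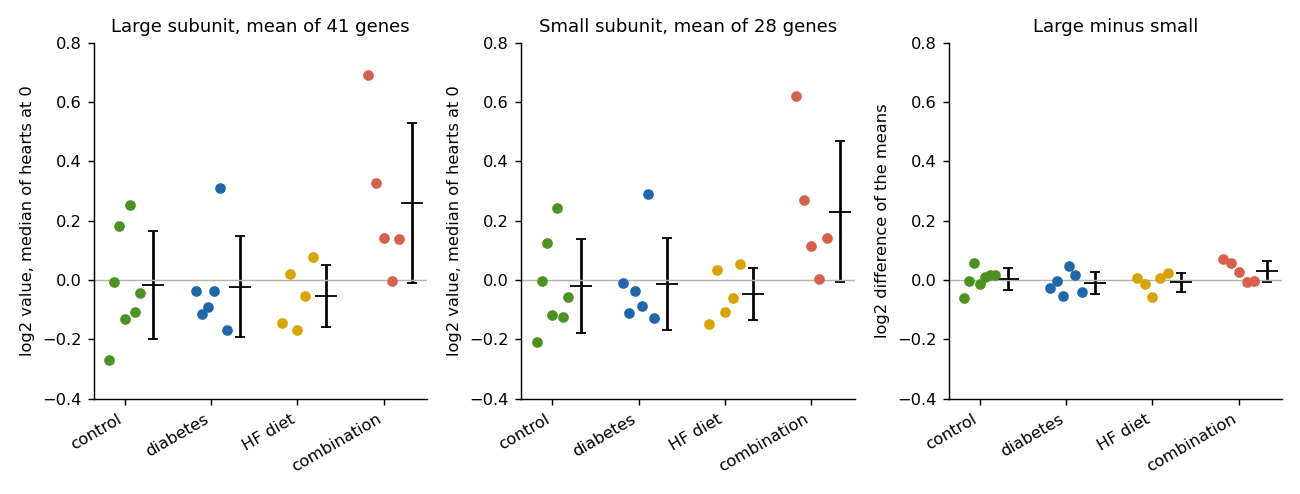
Mean log2 value per heart of the large (41 genes) and small (28 genes) subunit and their difference, by exposure group, with 1 point per heart and the group mean ± SD in black. Combination exposed heart 1, at 0.69 and 0.62, stands above all other hearts, while the difference between subunits stays between -0.061 and 0.072.

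The pattern was broad within single hearts. In combination exposed hearts 1, 2 and 5, 68, 68 and 67 of the 69 genes lay above 0, against 56 in heart 3 and 35 in heart 4. Diabetes exposed heart 5, with 67 genes above 0, and control 5, with 64, looked the same way at a smaller size. At the other end, control 1 had 3 genes above 0 and HF diet exposed heart 1 had 0. The members thus moved together from heart to heart as well as between groups.

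**Figure D2:**
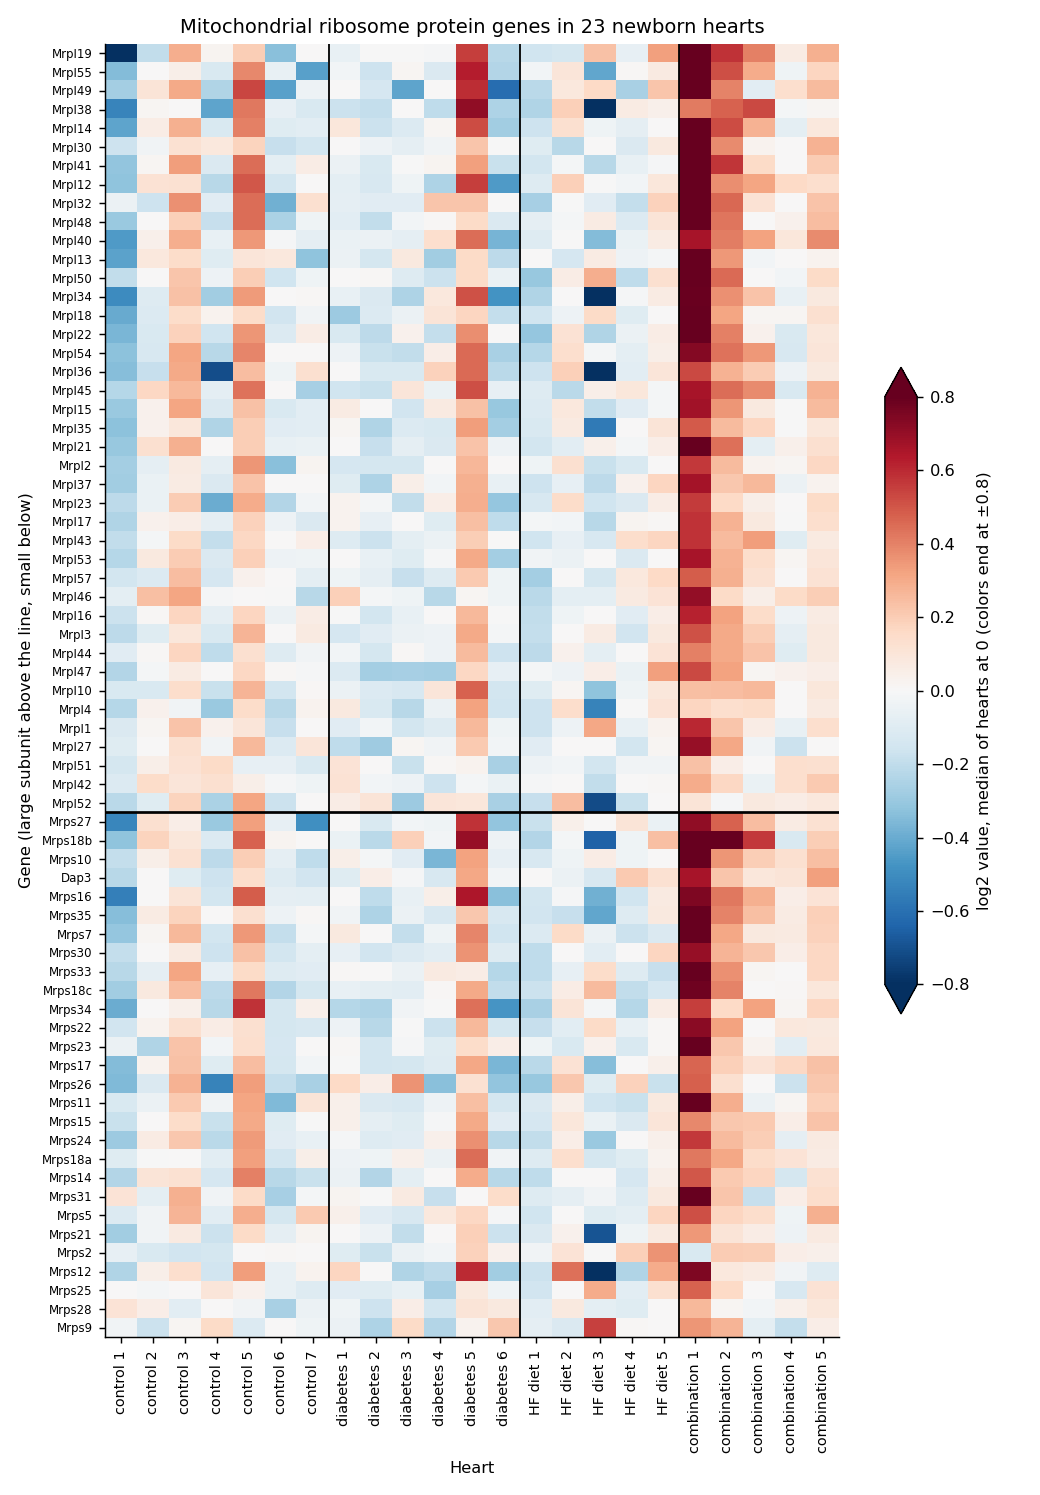
Log2 value of each of the 69 genes (rows, large subunit above the black line) in each of the 23 hearts (columns, by group), red above and blue below the gene's median heart, with colors ending at ±0.8. Many columns lean to 1 color, with combination exposed heart 1 the reddest (68 genes above 0), while others such as combination exposed heart 4 are mixed (35 above 0), and HF diet exposed heart 1 without a gene above 0.

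Compared with controls, all 69 genes had a higher mean in the combination exposed hearts, by 0.098 to 0.56 and with a median of 0.25. Over all 28366 features the median difference was near 0. Of the members, 17 of 69 (24.6%) rose, 11 of the large and 6 of the small subunit, and 0 fell. Among all features 2.11% rose and 1.23% fell in this comparison. By unadjusted p alone 36 members were under 0.05, against 2794 of all features. No member and no feature (0%) had an adjusted p under 0.05 in limma, where the smallest adjusted p of a member was 0.497. The count depended on single hearts and on the scaling. Without combination exposed heart 1 it was 2 of 69 (Mrpl19 and Mrps27) beside 0.73% of all features, and the median difference was 0.16 with 67 genes higher. Without hearts 1 and 2, which share a code stem, 0 members rose, the median was 0.10 and 65 genes were higher. It was 10, 26 and 29 without combination exposed hearts 2, 3 and 4 in turn, and 28 without control 5. Without control 1 it was 6 (Dap3, Mrpl19, Mrpl30, Mrpl55, Mrps10 and Mrps27), beside 1.27% of all features, with a median of 0.22 and all 69 genes higher. Without both control 1 and combination exposed heart 1 it was 1 (Mrpl19), beside 0.465% of all features, with a median of 0.12 and 67 genes higher. It was 4 after quantile normalization of the arrays, where the median difference was 0.19 and all 69 genes were still higher, 5 with array weights and 7 when hearts with a shared code stem were averaged. Where no share over all features is given, here and below, a count cannot tell a change in the members from one over the whole array.

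Among the large subunit genes, Mrpl19, a member of a bacterial ribosomal protein family, had the largest difference. Its log2 values were 0.85, 0.58, 0.41, 0.067 and 0.28 in combination exposed hearts 1 to 5, and ran from -0.81 through 0 to 0.29 in the controls. Hearts 1 to 3 lay above every control, while hearts 4 and 5 lay within the control range. The difference was 0.56 ± 0.17 (SE; adjusted p = 0.497, limma), a fold of 1.47. It remained past the threshold without heart 1, at 0.44 without control 1, its lowest control, and without both, but not without hearts 1 and 2.

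Mrpl40, a mitochondria-specific protein of the large subunit, was measured by 2 probe sets that gave 0.35 and 0.37. The annotation used here gave both to Mrpl40, while the paper lists the one at 0.37 under a separate locus similar to it. The mean values of both for Mrpl40 were 0.66, 0.41, 0.32, 0.088 and 0.38 in combination exposed hearts 1 to 5. The controls ran from -0.46 through -0.0095 to 0.35. Hearts 1, 2 and 5 thus exceeded all controls, and the difference was 0.36 ± 0.13 (SE; adjusted p = 0.497, limma). Without control 1, its lowest control, it was 0.28 and below the threshold.

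Mrpl38, also mitochondria-specific, did not pass the threshold here. The combination exposed hearts read 0.41, 0.47, 0.53, -0.017 and 0.013. The controls ran from -0.53 through -0.063 to 0.42, so that hearts 2 and 3 lay above all controls. The difference of 0.38 ± 0.19 (SE) had an adjusted p of 0.509 in limma. By the methods' t-test Mrpl38 was past the threshold, 1 of 6 members that were (Dap3, Mrpl19, Mrpl38, Mrpl40, Mrps10 and Mrps27). By that test 219 of all 28366 features were past the threshold and higher.

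Other large subunit genes that rose were Mrpl55 (0.45 ± 0.16, SE), Mrpl14 (0.37 ± 0.17) and Mrpl30 (0.37 ± 0.13). Mrpl12, the stalk protein that contacts translation factors, rose by 0.36 ± 0.15. Mrpl13, Mrpl32, Mrpl41, Mrpl48 and Mrpl50 rose by 0.34 to 0.37. Both probe sets of Mrpl41 passed, at 0.37 and 0.36. Mrpl49 had a larger difference than most of these, 0.39 ± 0.21 (SE), and did not pass, with combination exposed hearts from -0.085 to 1.19. The smallest difference of all members was that of Mrpl52, 0.098 ± 0.13 (SE). Of the genes in this paragraph that rose, only Mrpl55 and Mrpl30 stayed past the threshold without control 1.

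In the small subunit, Dap3, the GTP-binding protein also known from work on cell death, had the smallest p of the members. Its values were 0.66, 0.22, 0.091, 0.10 and 0.33 in combination exposed hearts 1 to 5, and -0.22, -0.10 and 0.14 as the lowest, median and highest control. All 5 combination exposed hearts lay above 6 of the 7 controls, and hearts 1, 2 and 5 lay above all of them. The difference was 0.36 ± 0.095 (SE; unadjusted p = 0.000857 and adjusted p = 0.497, limma).

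Mrps10, of a bacterial family in the head of the small subunit, read 0.96, 0.35, 0.20, 0.13 and 0.24 in combination exposed hearts 1 to 5. The controls ran from -0.21 through -0.072 to 0.20. Hearts 1, 2, 3 and 5 were above every control, heart 3 only barely. The difference was 0.42 ± 0.12 (SE; adjusted p = 0.497, limma).

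Mrps27, a pentatricopeptide-repeat protein that binds RNA, read 0.71, 0.47, 0.24, 0.064 and 0.12 in combination exposed hearts 1 to 5. The controls ran from -0.52 through -0.067 to 0.33. Hearts 1 and 2 were above every control and the other 3 fell inside the control range. The difference was 0.45 ± 0.15 (SE; adjusted p = 0.497, limma). Mrps18b (0.43 ± 0.18, SE), Mrps16 (0.36 ± 0.16) and Mrps35 (0.34 ± 0.11) also rose, though not without control 1 (0.37, 0.27 and 0.28). The study named Dap3, Mrpl19, Mrpl38, Mrpl40, Mrps10 and Mrps27 from these same hearts, so their order is not independent evidence. By quantitative PCR in male hearts, the paper reported higher Mrpl19 in the combination group and no difference for Mrps27 or Dap3. In its immunoblots MRPS27 was unchanged, and MRPL19 and DAP3 had upward trends that were not significant.

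**Figure D3:**
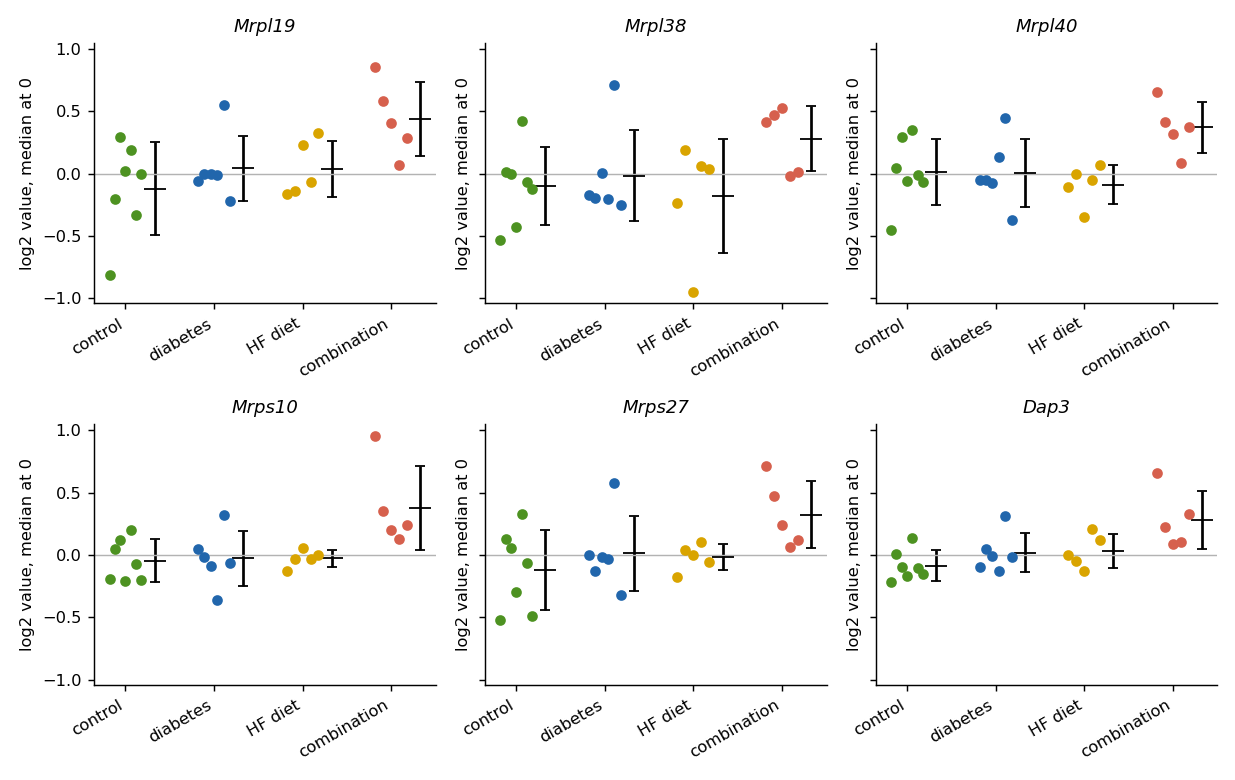
Log2 value per heart of Mrpl19, Mrpl38, Mrpl40, Mrps10, Mrps27 and Dap3 by exposure group, with 1 point per heart (hearts in order of number from left to right) and the group mean ± SD in black. Combination exposed hearts lie highest on average in each panel and overlap the controls in each.

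Promoter sequence was read for members from RefSeq on GRCr8, as 250 bases before to 50 after each transcript start. The tables held 57 promoters of 55 members, against 33469 promoters in all. The letters CCGGAAG, the core bound by ETS factors such as GABPA, an activator of nuclear genes for mitochondrial proteins, were in 18 of 57 member promoters (31.6%) on either strand and in 8.75% of all promoters (10.7% of those of coding genes). AAGATGGC, the core of YY1, was in 14 (24.6%) against 3.17% (coding, 3.68%), and 11 of these 14 matches started at or after the transcript start. CGCATGCG, the core of NRF1, a further activator of such genes, was in 6 (10.5%) against 1.66% (coding, 2.11%). The GC box GGGCGG was in 30 (52.6%) against 33.1% (coding, 41.8%), the E-box CACGTG in 6 (10.5%) against 6.42% (coding, 7.01%), and the estrogen-related receptor core CAAGGTCA in 3 (5.26%) against 1.52% (coding, 1.26%). These are matches of letters, counted once per promoter, and say nothing of binding in these hearts.

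The 150 bases before the start of 4 genes that rose in the combination exposed hearts are given below, 5′ to 3′ on the gene's strand, to show how the matches lie. No match lay in the same window of Mrpl12, Mrpl30, Mrpl41, Mrpl50, Mrpl55 and Mrps10, which also rose. All of these but Mrpl55 had a match elsewhere in the promoter. Capitals mark the matches that lie wholly within these 150 bases. Elsewhere in its promoter each of the 4 genes also has a YY1 core, Mrps18b an ETS core and Mrpl48 a GC box. Mrps27 (chr2:32474054-32474203, plus strand) has a GC box and an ETS core, both in reverse orientation. Mrps18b (chr20:2842856-2843005, plus strand) has 2 reversed GC boxes, an E-box and an NRF1 core. Mrpl32 (chr17:55260501-55260650, plus strand) has an NRF1 core and a GC box, and Mrpl48 (chr1:164351377-164351526, minus strand) has a reversed ETS core.
Mrps27: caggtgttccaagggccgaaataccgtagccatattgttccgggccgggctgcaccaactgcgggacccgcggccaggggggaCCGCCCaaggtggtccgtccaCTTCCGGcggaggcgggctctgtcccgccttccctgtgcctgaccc
Mrps18b: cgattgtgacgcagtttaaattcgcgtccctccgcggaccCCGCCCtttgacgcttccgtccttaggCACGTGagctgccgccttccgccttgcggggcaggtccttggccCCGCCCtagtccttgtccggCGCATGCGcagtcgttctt
Mrpl32: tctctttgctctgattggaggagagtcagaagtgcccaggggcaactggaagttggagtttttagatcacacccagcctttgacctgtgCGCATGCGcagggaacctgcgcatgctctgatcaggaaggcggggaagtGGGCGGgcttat
Mrpl48: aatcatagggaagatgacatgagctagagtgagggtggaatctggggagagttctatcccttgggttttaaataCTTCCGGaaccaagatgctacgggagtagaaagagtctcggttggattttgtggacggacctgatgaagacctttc

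Compared with diabetes exposed hearts, all 69 genes were again higher in the combination exposed hearts, with a median difference of 0.27. In this comparison 18 of 69 rose, 15 of the large and 3 of the small subunit, and 0 fell, beside 1.65% of all features that rose and 1.4% that fell. Without combination exposed heart 1 the count was 0 and the median difference 0.16. Without diabetes exposed heart 5, the highest of its group, it was 35, and it was 9, 11 and 8 without diabetes exposed hearts 2, 3 and 6. It was 8 and 34 without combination exposed hearts 2 and 4. Mrpl49 had the largest difference among the members that rose, at 0.47 ± 0.21 (SE), followed by Mrpl12 (0.43 ± 0.16), Mrpl41 (0.42 ± 0.16), Mrps10 (0.40 ± 0.13) and Mrps35 (0.40 ± 0.12). No member and no feature (0%) had an adjusted p under 0.05, and the smallest adjusted p of a member was 0.528 in limma. For no member did all combination exposed hearts lie above all diabetes exposed hearts, or above all controls, where 0.257% and 0.116% of all features did.

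Compared with HF diet exposed hearts, 68 of the 69 genes were higher in the combination exposed hearts, with a median difference of 0.29. Here 24 of 69 rose, 16 of the large and 8 of the small subunit, and 0 fell, while 2.83% of all features rose and 2.92% fell. Without combination exposed heart 1 the count was 4 (Mrpl40, Mrpl41, Mrps18b and Mrps35), and without hearts 1 and 2 it was 1 (Mrpl40). It was 14 and 38 without combination exposed hearts 2 and 4, and 14 without HF diet exposed heart 1. The largest differences were those of Mrps18b (0.62 ± 0.20, SE), Mrpl34 (0.55 ± 0.21), Mrpl41 (0.51 ± 0.16) and Mrps35 (0.49 ± 0.12). For Mrpl34, HF diet exposed heart 3 read -1.14, far below the others of its group. No member and no feature (0%) had an adjusted p under 0.05 in limma, with a smallest adjusted p of 0.369 for members.

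The combination and HF diet exposed hearts did not overlap for 5 members, Mrpl40, Mrpl41, Mrpl51, Mrpl53 and Mrps10, all with the combination exposed hearts above, as for 0.673% of all features. For Mrpl41, the combination exposed hearts read 1.14, 0.57, 0.16, 0.0055 and 0.20, and the HF diet exposed hearts -0.15, -0.016, -0.22, -0.062 and -0.0065. The lowest combination exposed heart was only just above the highest HF diet exposed heart. For Mrpl40, the HF diet exposed hearts read -0.11, -0.005, -0.35, -0.051 and 0.066, just under the lowest combination exposed heart at 0.088. The 3 comparisons above share the combination exposed hearts, so their counts are not independent of each other.

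Neither exposure alone moved a member past the threshold. Between HF diet exposed and control hearts 0 members rose and 0 fell, where 0.702% of all features rose and 0.254% fell. The median difference was -0.041, and 20 of 69 genes were higher. Mrps2, a bacterial-family protein of the small subunit, had the smallest p, with 0.19 ± 0.075 (SE; adjusted p = 1.00, limma). Between diabetes exposed and control hearts 0 members rose and 0 fell (0.229% and 0.0811% of all features), the median was -0.0056 and 31 genes were higher. Between diabetes exposed and HF diet exposed hearts the counts were also 0 and 0 (0.229% and 0.208% of all features), with a median of 0.031. Adjusted p was under 0.05 for no feature (0%) in any of the 3 comparisons, and by unadjusted p alone 1, 0 and 0 members were under 0.05. Without control 1 the counts against controls were also 0, with medians of -0.070 for HF diet and -0.044 for diabetes. These counts do not show that the groups were alike.

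The interaction asked whether the combination differed from the sum, on the log2 scale, of the differences for diabetes and HF diet. It was above 0 for 68 of 69 members, with a median of 0.29, against a median near 0 for all features. By the same threshold 10 members had a positive interaction and 0 a negative one, 5 in each subunit, beside 1.77% positive and 2.61% negative among all features. These were Mrps18b (0.57 ± 0.26, SE), Mrpl41 (0.56 ± 0.22), Mrps35 (0.55 ± 0.16), Mrpl40 (0.47 ± 0.19), Mrps10 (0.39 ± 0.18), Mrpl30, Mrps17, Mrps33, Mrpl15 and Mrpl46. No feature (0%) had an adjusted p under 0.05, and the smallest adjusted p of a member was 0.675 in limma. Without combination exposed heart 1 the count was 2 (Mrpl41 and Mrps35), and without hearts 2, 3 and 4 in turn it was 6, 17 and 28. It was 21, 6, 3 and 4 without controls 1, 2, 3 and 5, and 6, 33 and 4 without diabetes exposed hearts 3, 5 and 6. Without HF diet exposed hearts 1 and 4 it was 3 and 6.

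**Figure D4:**
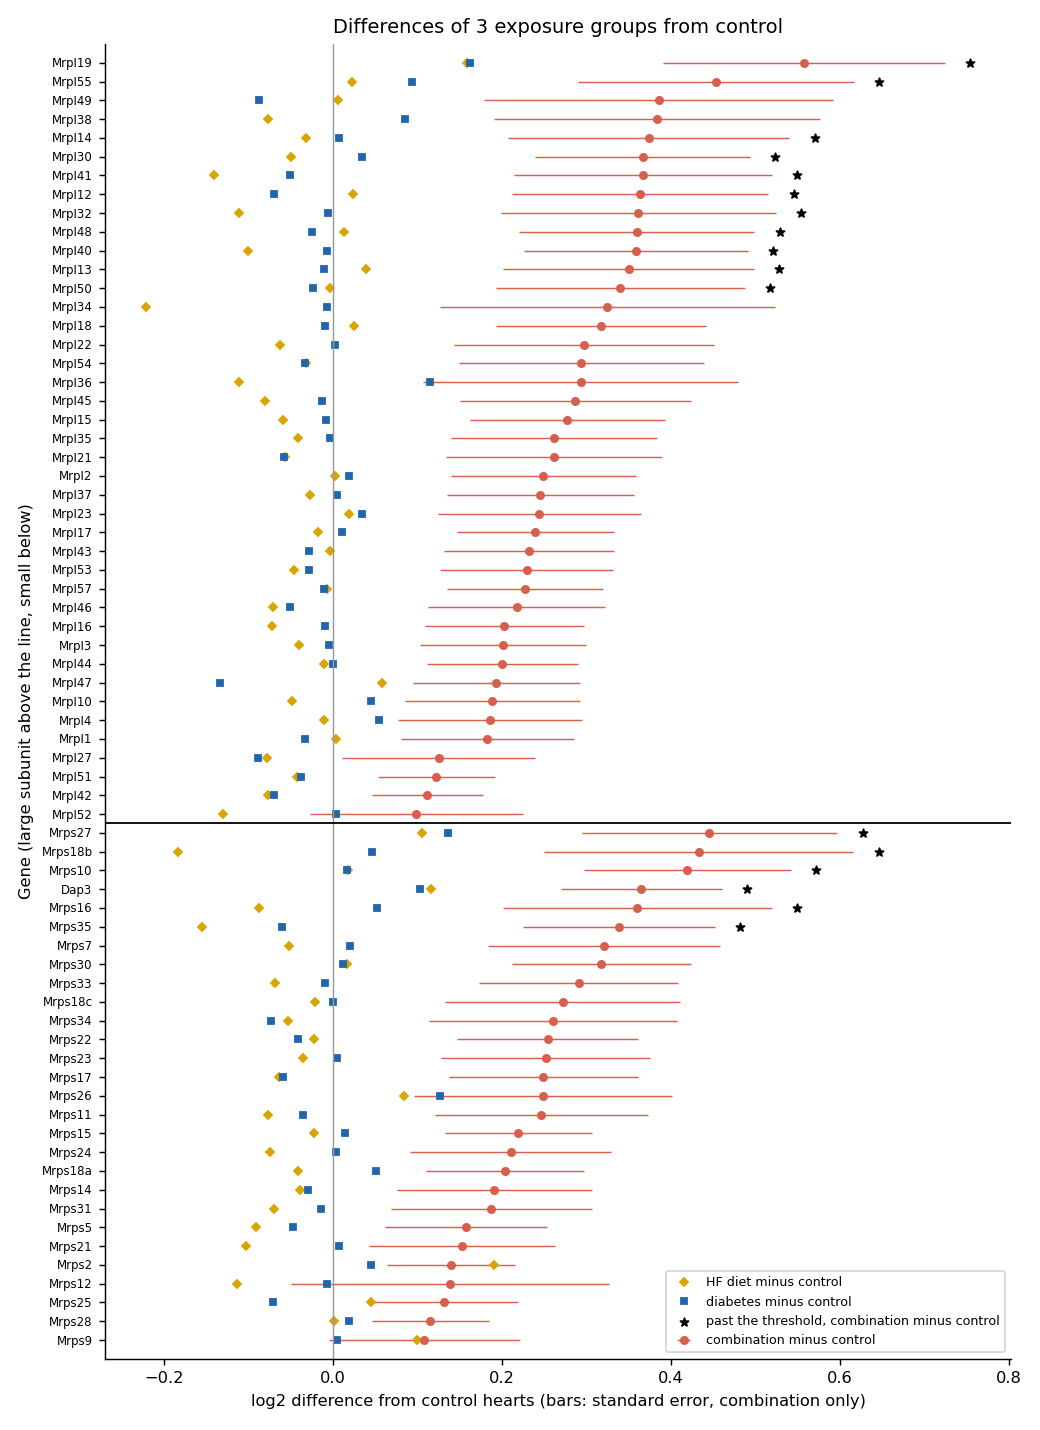
Log2 difference from control hearts of each of the 69 genes for combination (circles, bars ± SE), HF diet (diamonds) and diabetes (squares) exposed hearts, ordered by the combination difference within each subunit, with stars at the 17 genes past the threshold. All 69 circles lie right of 0, between 0.098 and 0.56, while the other symbols scatter around 0 between -0.22 and 0.19.

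After removal of the group means, pairs of members had a median Pearson correlation of 0.69 over the 23 hearts, and a mean of 0.63. All pairs of named genes had a mean of 0.0055. The medians were 0.72 for 820 pairs within the large subunit, 0.64 for 378 pairs within the small subunit and 0.69 for 1148 pairs across subunits. All genes of a heart share its RNA, array and normalization. Mrpl41 and Mrpl14 followed the mean of the other members most closely, both at 0.97, and Mrps30 stood at 0.96. Mrps2 (0.10), Mrps9 (0.17), Mrps28 (0.35), Mrpl51 (0.39) and Mrpl42 (0.46) followed it least.

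Mrps9, Mrps2 and Mrpl42 also had small differences in the combination. Mrps9, of a bacterial family, had a difference from controls of 0.11 ± 0.11 (SE) and read highest in HF diet exposed heart 3, at 0.55. Mrps2 had 0.14 ± 0.075 (SE), and in combination exposed heart 1, where 68 other genes were above 0, it read -0.12. Mrpl42, with 2 probe sets at 0.15 and 0.073, had 0.11 ± 0.066 (SE). The 41 members of bacterial families and the 28 mitochondria-specific members did not part in the comparison with controls: 10 of 41 and 7 of 28 rose, with mean differences of 0.26 and 0.27.

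The medians of the other lists of the mitochondrial translation system were also above 0 between combination exposed and control hearts. Of the mitoribosome proteins without an Mrp symbol, 4 of 5 were measured, 1 rose and 0 fell, with a median of 0.25; the gene that rose was Chchd1, of the small subunit (0.37 ± 0.16, SE). Of 18 translation factors and related proteins 12 were measured, and 1 rose, Taco1, the activator of cytochrome oxidase subunit translation (0.45 ± 0.15, SE), with a median of 0.18 and 12 of 12 higher. A list of 20 genes held aminoacyl-tRNA synthetases together with Qrsl1, Gatb and Gatc, of an amidotransferase. Of this list 13 were measured, and Yars2 (0.44 ± 0.19, SE) and Hars2 (0.33 ± 0.15) rose, with a median of 0.18 and 11 of 13 higher. Of 27 assembly and rRNA modification factors 22 were measured, and 1 rose, Mterf4, which acts in large subunit assembly (0.40 ± 0.14, SE), with a median of 0.17 and 19 of 22 higher. No gene of these lists fell, and 2.11% of all features rose. The mean of the assembly list was 0.48, 0.18, -0.010, -0.0605 and 0.10 in combination exposed hearts 1 to 5. In each of these lists combination exposed heart 1 had the highest mean of its group. Control 1 had the lowest mean of the controls in all but the assembly list. How far these lists depend on either heart was not tested.

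Other gene groups moved with the members from heart to heart. The mean of 33 complex I subunit genes, the respiratory enzyme that takes electrons from NADH, had a Pearson correlation of 0.98 with the members' mean over the 23 hearts. Of these genes 4 of 33 rose (Ndufa2, Ndufs5, Ndufb2 and Ndufs8) in the combination exposed hearts against controls, beside 2.11% of all features, and 0 fell, with a median of 0.15. The 71 cytosolic ribosomal protein genes had a correlation of 0.86, or 0.65 without combination exposed hearts 1 and 2, with 0 that rose and a median of 0.088. Opposite in direction were 13 measured of 22 chromatin regulators with long transcripts, at -0.94. Of these 5 of 13 fell (Nsd1, Crebbp, Ep300, Bptf and Arid1a), beside 1.23% of all features, 0 rose, and the median was -0.28. Their part in the members' differences was not tested, and the points of each relation share arrays and normalization.

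Cell type markers were compared in the same way. The mean of 15 cardiomyocyte markers had a correlation of -0.90 with the members' mean. None of these markers passed the threshold, their median difference between combination exposed and control hearts was -0.038, and the mean per heart ran from -0.23 to 0.0041 in combination exposed hearts and from -0.11 to 0.081 in controls. The mean of 10 erythroid markers had a correlation of 0.38. It ran from -0.33 to 1.11 in combination exposed hearts and from -0.53 to 0.23 in controls. Of the 10, 1 rose, the hemoglobin-stabilizing protein gene Ahsp (1.38 ± 0.43, SE), beside 2.11% of all features. The erythroid median difference from controls was 0.34 in combination exposed and 0.33 in diabetes exposed hearts. In the diabetes exposed hearts 2 of the 10 rose, beside 0.229% of all features. Correlations were -0.58 for fibroblast and matrix, -0.51 for endothelial, 0.27 for macrophage, -0.15 for smooth muscle and -0.35 for lung and thymus markers. Without combination exposed hearts 1 and 2 they were -0.19, -0.44, 0.11, 0.25 and -0.42, and without control 1 they were -0.66, -0.54, 0.49, -0.26 and -0.24. The cardiomyocyte value was -0.83 and -0.93, and the erythroid value 0.28 and 0.34, in the same order. In the comparison with controls 0 genes of these 5 lists rose or fell. Whether any of these shifts had a part in the members' differences was not tested.

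**Figure D5:**
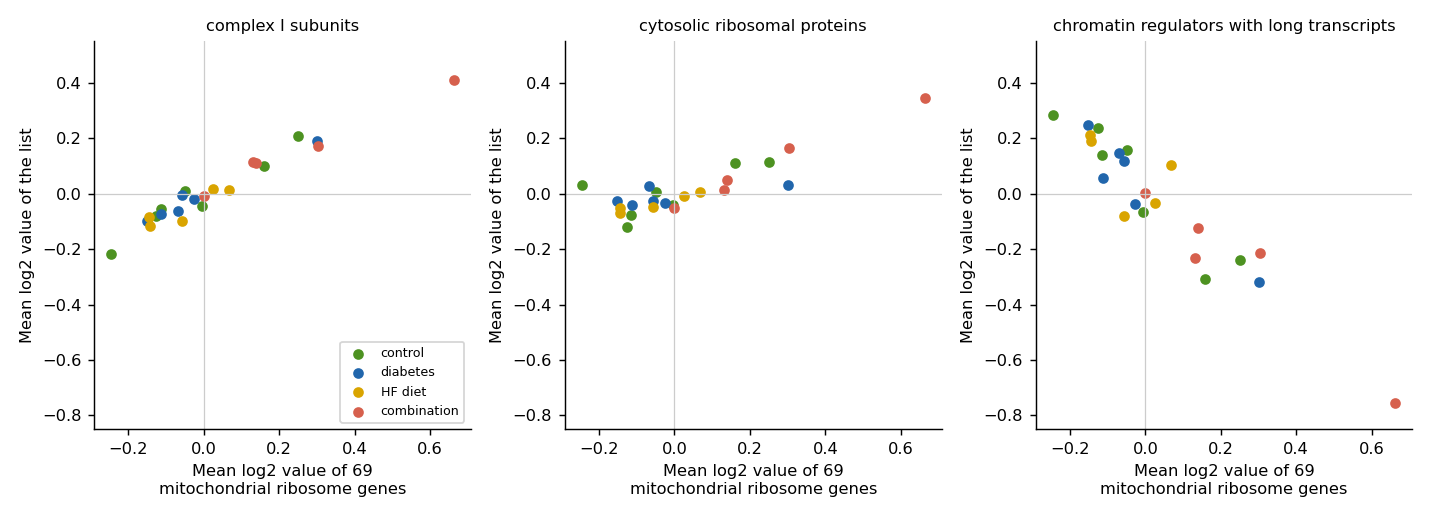
Mean log2 value per heart of 33 complex I subunit genes, 71 cytosolic ribosomal protein genes and 13 chromatin regulators with long transcripts against the mean of the 69 mitochondrial ribosome genes, with 1 point per heart, colored by group. Complex I rises and the chromatin regulators fall along the members' mean (r = 0.98 and -0.94), with combination exposed heart 1 at the end of both.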

How the data were processed

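RNA of 23 hearts was hybridized to Affymetrix Rat Gene ST 1.0 arrays, and the authors normalized probe intensities in GeneSpring GX 14.01. The deposited values are log2 signals for 29170 probe sets, each centred by the authors on its median over the hearts. The algorithm is not given in the sources. Centring removes levels, so no filter on dim probe sets was possible, and array number limits the precision.

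Groups came from the exposure labels. Probe sets of a gene were averaged per heart, which gave 28366 features, 14506 of them named genes. All 69 members matched RefSeq by Entrez identifier, and 1 probe set with a second symbol beside Mrpl20 was left out. All features entered 1 limma fit of all hearts, with a mean for each group (limma 3.58.1, lmFit and eBayes, in R 4.3.3), with Benjamini-Hochberg adjustment over all features, and was tested on simulated data. Means over members carry no p-value. Alternatives were the methods' t-test, array weights, quantile normalization, array centring, single probe sets, named genes alone, averaging of hearts with a shared code stem, a replicate block, and leaving out hearts.

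The members and lists were chosen with earlier results of these data known. The named genes are those the study named, the 12 largest past the threshold per comparison, those without overlap between combination exposed hearts and controls or diabetes exposed hearts, the 3 with the lowest combination difference, and up to 5 past the threshold per pathway list. The genes set out for their likeness to the other members, or without overlap with HF diet exposed hearts, as well as Mrpl49, were added after their values were seen. The deposited comparisons of the study were not used.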

Additional observations from a re-analysis of the deposited data

Results flagged for a closer look

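Each group of hearts was tested for 1 heart set apart from the rest by a wide gap relative to the range of its group. Chance alone gives about 1 in 20 for a single test. The tests were not independent, since the members moved together and the subunit means hold the same genes. The number found can therefore not be set against that rate. Among 120 groups of hearts tested over 30 results, 14 held such a heart. Diabetes exposed heart 5 was the distant heart in 7 of these, always above its group: the large subunit mean (0.31), the small subunit mean (0.29), Mrpl19 (0.55), Mrpl30 (0.22), Mrpl38 (0.71), Mrpl55 (0.63) and Mrps27 (0.58). HF diet exposed heart 3 was apart in 4, below its group for Mrpl34 (-1.14), Mrpl42 (-0.20) and Mrpl55 (-0.42) and above it for Mrps9 (0.55). Combination exposed heart 1 was apart for Mrpl46 (0.70) and Mrps10 (0.96), and control 1 for Mrps35 (-0.34).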

How the results depend on the processing

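Under the alternatives run, no change of direction was found for a named gene's difference between combination exposed and control hearts, for one past the threshold in another comparison, or for a subunit mean difference involving the combination. Subunit mean differences among the other 3 groups, which lay between -0.037 and 0.033, changed sign when single hearts were left out, and for the small subunit in diabetes against controls after quantile normalization too. The counts of members past the threshold depended on the setting. For the combination against controls, against diabetes and against HF diet exposed hearts they were 17, 18 and 24; they were 6, 5 and 8 with the methods' t-test, 5, 8 and 7 with array weights, 4, 8 and 12 after quantile normalization, and 0, 0 and 0 at an adjusted p under 0.05. With the methods' t-test 219, 144 and 337 of all 28366 features were past the threshold and higher. Averaging hearts of 1 code stem gave 7, 6 and 11, and 6 for the interaction (10 in the fit reported). Leaving out 1 heart at a time gave 2 to 29, 0 to 35 and 4 to 38, and 2 to 33 for the interaction, with the lowest counts without combination exposed heart 1. Leaving out both combination exposed hearts 1 and 2, chosen after seeing the data, gave 0, 0 and 1, and 1 for the interaction; the interaction was 0 at an adjusted p under 0.05. Leaving out control 1 and combination exposed heart 1 together, also chosen after seeing the data, gave 1, 0 and 5, and 4 for the interaction. A replicate block gave 8 and 8 against controls and diabetes exposed hearts. Same-numbered hearts of different groups had a median correlation of -0.083 over 31 pairs (range -0.42 to 0.56). Over 166 other pairs it was -0.010 (range -0.53 to 0.41). With ranges this wide, these values cannot tell whether same-numbered hearts share more than a number. Of the named-gene values under the alternatives, 1762 kept their side of the threshold, 384 lost it and 14 gained it. The cause of these shifts was not tested.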
